A study of Homo sapiens with 8 samples.

Results

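The 10 genes described here make, regulate and break down the polyamines. They were chosen by name, as ODC1, AMD1, SRM, SMS, OAZ1, OAZ2, AZIN1, SAT1, SMOX and PAOX, out of 63129 genes in the deposited expression table, and all 10 were among the 14732 tested genes, whose mean reached 1 RPKM (reads per kilobase of transcript, scaled to the number of mapped reads of the library). RNA-seq was performed in LP-1, a human multiple myeloma cell line, so a tumour of plasma cells. Cells were treated for 6 hr with 2.5 μM SGC-CBP30, an inhibitor of the bromodomains of the histone acetyltransferases CBP and EP300, with 250 nM CPI203, an inhibitor of the BET bromodomain proteins, or with the vehicle DMSO. The 8 libraries form 4 groups of 2, since each compound was compared with its own pair of DMSO libraries, called the SGC-CBP30 controls and the CPI203 controls below. Which DMSO pair belongs to which compound was read from the series in which the libraries were named. The study's figure legends call the replicates biological, and the labels do not say whether each came from its own culture. One cell line at 1 dose and 1 time was studied.

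Polyamines are small, positively charged molecules that bind RNA and DNA and that growing cells need. Ornithine decarboxylase (ODC1) makes putrescine from ornithine, AMD1 makes the decarboxylated S-adenosylmethionine that donates aminopropyl groups, and the spermidine and spermine synthases SRM and SMS attach those groups. The antizymes OAZ1 and OAZ2 bind ODC1 protein and send it to the proteasome, the antizyme inhibitor AZIN1 binds antizyme in its place, and catabolism runs through the acetyltransferase SAT1, the spermine oxidase SMOX and PAOX, the oxidase of acetylated polyamines. Ornithine decarboxylase is a classical target of the transcription factor MYC, which is highly expressed in myeloma. Control by antizyme acts on protein, which these data do not measure.

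All 8 plasma cell markers examined, such as SDC1 and XBP1, were at 1 RPKM or more in every library, and their summed level was 1224 to 1332 RPKM in the 4 DMSO libraries, 904.1 to 931.2 with SGC-CBP30 and 828.4 to 842.1 with CPI203. Of 10 markers of other cells 9 were under 1 RPKM in every library, PAX5 (B cells) and EPCAM (epithelium) were at 0 throughout, and the exception was the globin gene HBB at 0.773 to 3.56 RPKM. The summed level of these other markers was 1.27 to 1.5 RPKM in the SGC-CBP30 controls, 1.89 to 1.91 with SGC-CBP30, 4.12 to 4.45 in the CPI203 controls and 2.26 to 2.93 with CPI203. The part of these shifts in the results was not tested. Depth, estimated from the steps between low RPKM values, was 26000000 to 50100000 reads per library and was highest in the SGC-CBP30 libraries (46800000 and 50100000).

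A gene is said here to have risen or fallen when its adjusted p-value from limma was below 0.05, and to be called when it had also changed at least 1.5-fold (0.585 on the log2 scale). Fold changes are on the scale of log2(RPKM + 0.1), so they slightly understate changes of genes near 1 RPKM. RPKM values are shares of a library, and in such bulk samples fewer cells of a type and less RNA per cell cannot be told apart. With 2 libraries a group, an exact permutation test cannot give a two-sided p below 0.333, so the tests rest on the spread that limma pooled over all 4 groups. With SGC-CBP30 4 of the 10 genes rose and 2 fell, beside 25.6% and 14.8% of all genes tested, and 1 was called, beside 7.26% of all genes. With CPI203 5 rose and 4 fell, beside 31.1% and 33.1%, and 5 were called, beside 27.8%. Those 5 were 2 called higher, SAT1 and SMOX, and 3 called lower, SRM, AMD1 and PAOX, beside 13.4% and 14.4% of all genes.

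The sequences upstream of SRM, AMD1 and SAT1 are shown because these genes carry the largest falls of the synthesis genes and the largest rise of the catabolic genes with CPI203. They were taken from RefSeq (GRCh38.p14), run 5′ to 3′ on the strand of the gene, and end at a start site or before the annotated exons next to it. AMD1 also has a start site at chr6:110814617, upstream of the stretch shown. Capitals mark CACGTG, the E-box that MYC with its partner MAX binds, which reads the same on both strands, and the stretches of AMD1 and SAT1 hold none. The stretch for SRM is chr1:11060025-11060268 on the minus strand, that for AMD1 is chr6:110874535-110874769 and that for SAT1 is chrX:23782923-23783172, both on the plus strand.
SRM: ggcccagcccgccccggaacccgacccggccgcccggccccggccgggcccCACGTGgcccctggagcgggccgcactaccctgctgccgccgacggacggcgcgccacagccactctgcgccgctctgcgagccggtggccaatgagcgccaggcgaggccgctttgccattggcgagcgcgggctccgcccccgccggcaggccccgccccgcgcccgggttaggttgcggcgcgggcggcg
AMD1: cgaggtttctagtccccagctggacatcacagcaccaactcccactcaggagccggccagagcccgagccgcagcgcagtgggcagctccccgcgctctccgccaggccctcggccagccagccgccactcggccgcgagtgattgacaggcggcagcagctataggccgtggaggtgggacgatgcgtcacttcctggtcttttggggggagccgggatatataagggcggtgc
SAT1: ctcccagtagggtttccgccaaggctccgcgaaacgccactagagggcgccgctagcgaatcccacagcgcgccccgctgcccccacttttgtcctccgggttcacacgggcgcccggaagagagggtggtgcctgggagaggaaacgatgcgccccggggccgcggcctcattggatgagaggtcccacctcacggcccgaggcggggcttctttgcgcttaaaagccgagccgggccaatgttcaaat
RefSeq promoter windows were analysed for 7 of the 10 genes, with 10 windows of 250 bases before to 50 bases after a start site. Of these genes 2 held CACGTG, namely SRM and ODC1. The motif lay in 7.26% of all 35116 windows and in 8.77% of all 27305 genes with a window. In SRM it began at -199, counted in bases from the start site. ODC1 held 2 copies in 1 window, as did 0.664% of all windows (counted with 2 or more), beginning at -29 and 5 from that start site, in intron sequence of the 2 of its 4 GENCODE transcripts that span the place. Both are shown as stretches of 30 bases, chr2:10448024-10448053 and chr2:10447990-10448019 on the minus strand.
ODC1, upstream copy: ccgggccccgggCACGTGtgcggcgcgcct
ODC1, downstream copy: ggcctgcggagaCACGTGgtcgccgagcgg
A match to these letters is a description and not a binding site, and binding was not analysed here. The promoter windows of SMOX, PAOX and AZIN1 were not analysed here.

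Levels of the 10 genes in vehicle-treated cells spanned from OAZ1, with group means of 477.5 RPKM in the SGC-CBP30 controls and 355.3 RPKM in the CPI203 controls, to SMOX, with 2.6 and 1.96 RPKM. RPKM is per length, so levels can be set against each other between genes. Below OAZ1 came ODC1, SRM and AZIN1 at 120 to 179.5 RPKM, then AMD1 and OAZ2 at 43 to 52 RPKM, SMS at 18.3 and 20.6 RPKM, and PAOX and SAT1 at 4.61 to 6.24 RPKM. ODC1 and SRM overlapped in the SGC-CBP30 controls (169.9 and 174.9 against 174.8 and 184.3 RPKM) but not in the CPI203 controls. PAOX and SAT1 overlapped in both DMSO pairs, and their order was not separated by the replicates. With CPI203 the order changed in 4 places without overlap. AZIN1 passed SRM, OAZ2 passed AMD1, SAT1 passed SMS, and SMOX passed PAOX.

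**Figure D1:**
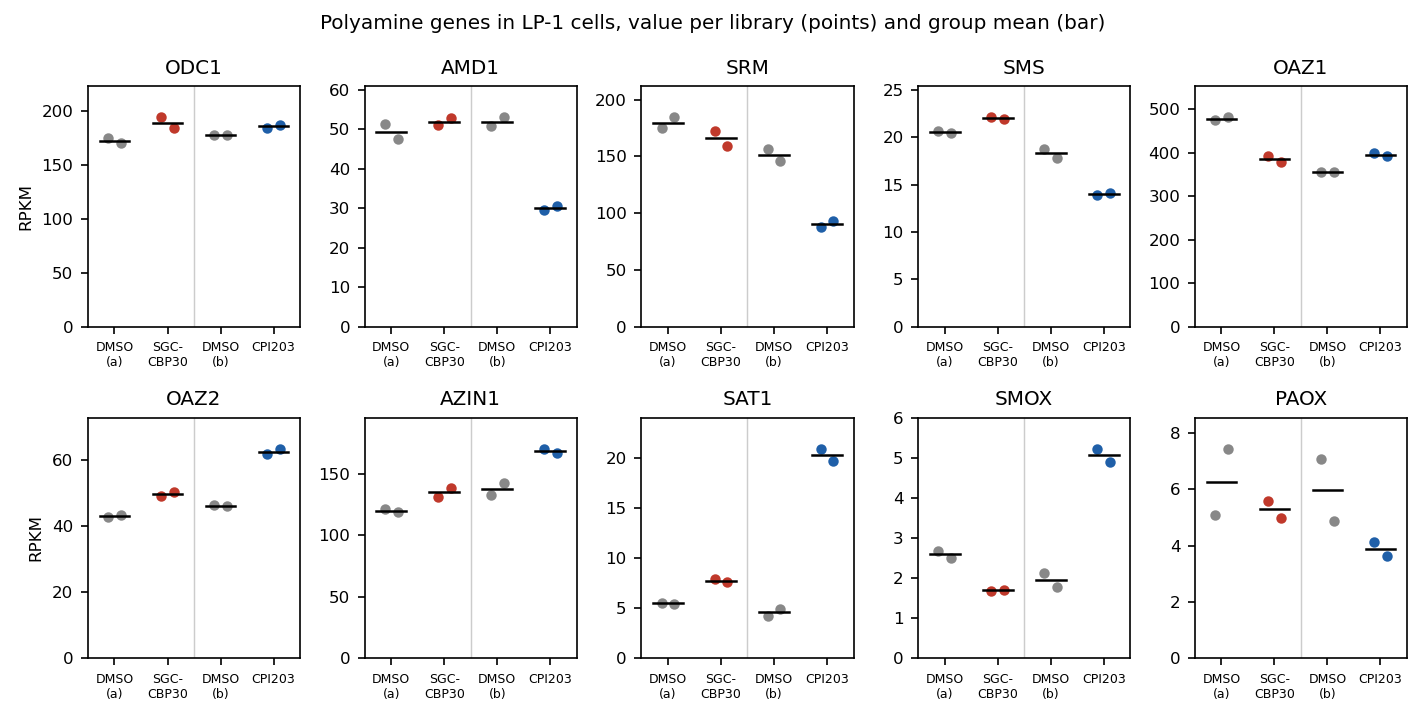
RPKM of the 10 polyamine genes (vertical axis from 0, one panel per gene) in each library (points) with the group mean (bar), for the SGC-CBP30 controls (DMSO a), SGC-CBP30, the CPI203 controls (DMSO b) and CPI203. SAT1 stands at 19.7 and 20.9 RPKM with CPI203 and below 8 RPKM elsewhere, SRM and AMD1 are lowest with CPI203, and ODC1 stays between 169.9 and 194 RPKM in all 8 libraries.

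The first synthetic enzyme differed least from its controls with CPI203. ODC1 (ENSG00000115758, chr2:10580094-10588630 on hg19, the build of all gene positions below) was at 177.8 and 177.7 RPKM with DMSO and at 184.3 and 186.9 RPKM with CPI203. The CPI203 libraries lay above their controls without overlap, but by little, and the log2 fold change of 0.06 (SE 0.03, 95% interval -0.01 to 0.14) did not pass the test (adjusted p = 0.131). MYC fell in the same libraries from 246.9 and 239.6 RPKM to 31.5 and 30.9 RPKM (log2 fold change -2.96, adjusted p = 4.97e-10). With SGC-CBP30 ODC1 rose from 174.9 and 169.9 RPKM to 194 and 184.5 RPKM, a log2 fold change of 0.13 (SE 0.03, adjusted p = 0.0113). MYC fell from 280.6 and 296.3 RPKM with DMSO to 217.1 and 193.2 RPKM with SGC-CBP30 (log2 fold change -0.49, adjusted p = 0.000124). IRF4, a transcription factor on which myeloma cells depend, fell by -1.37 with SGC-CBP30 (adjusted p = 8.65e-08) and by -0.17 with CPI203 (adjusted p = 0.00319) on the log2 scale. The rise of ODC1 was no longer past the threshold after scaling each library to its median (0.06, adjusted p = 0.221), against all 4 DMSO libraries (0.11, adjusted p = 0.116), without the intensity trend (0.13, adjusted p = 0.0685), without DMSO replicate 2 (0.11, adjusted p = 0.0739) or without SGC-CBP30 replicate 1 (0.10, adjusted p = 0.0958). The difference between the compounds for ODC1 was 0.07 with an interval of -0.04 to 0.18 (adjusted p = 0.239). After quantile normalization both the change of ODC1 with CPI203 (0.09, adjusted p = 0.0344) and this difference (0.15, adjusted p = 0.024) passed the test.

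The other 3 synthetic genes fell with CPI203. AMD1 (ENSG00000123505, chr6:111195973-111216916), the S-adenosylmethionine decarboxylase, went from 50.9 and 53.1 RPKM with DMSO to 29.6 and 30.6 RPKM, a log2 fold change of -0.79 (SE 0.05, adjusted p = 7.16e-07). SRM (ENSG00000116649, chr1:11114641-11120081), which makes spermidine, went from 156.2 and 145.9 RPKM to 88 and 92.7 RPKM, a log2 fold change of -0.74 (SE 0.05, adjusted p = 1.18e-06). In both genes the groups were far apart and the replicates close, and both were called, at 1.73-fold and 1.67-fold lower, but many other genes fell further, since AMD1 ranked 1418 and SRM 1552 among the falls. SMS (ENSG00000102172, chrX:21958691-22025798), which makes spermine, went from 18.8 and 17.8 RPKM to 13.9 and 14.1 RPKM, a log2 fold change of -0.38 (SE 0.05, adjusted p = 0.000124) that was under 1.5-fold.

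With SGC-CBP30 none of these 3 genes passed the test. AMD1 was at 51.4 and 47.5 RPKM with DMSO and 51.1 and 52.9 RPKM with SGC-CBP30, with overlapping groups and a log2 fold change of 0.07 (interval -0.04 to 0.19, adjusted p = 0.262), which turned to -0.0019 after median scaling. SRM was at 174.8 and 184.3 RPKM with DMSO and 172.2 and 159.4 RPKM with SGC-CBP30, a log2 fold change of -0.12 (interval -0.23 to -0.0011, adjusted p = 0.0988) that passed the test after median scaling (-0.19, adjusted p = 0.0207). The SRM libraries did not overlap, though they came within 3 RPKM of each other, and against all 4 DMSO libraries the sign turned (0.0095). SMS was at 20.7 and 20.4 RPKM with DMSO and 22.1 and 21.9 RPKM with SGC-CBP30, a log2 fold change of 0.10 (interval -0.02 to 0.21, adjusted p = 0.172), higher in both libraries by little. The pseudogenes SRMP1 and AMD1P1, which could share reads with SRM and AMD1, were at 0 and at no more than 0.116 RPKM in every library.

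The compounds differed from each other on each of these 3 genes. The effect of SGC-CBP30 minus that of CPI203 was 0.86 for AMD1 (SE 0.07, adjusted p = 9.73e-06), 0.62 for SRM (SE 0.07, adjusted p = 8.07e-05) and 0.48 for SMS (SE 0.07, adjusted p = 0.000509) on the log2 scale. The difference for SRM fell just short of 1.5-fold after median scaling (0.56), without SGC-CBP30 replicate 1 (0.57) and without replicate 1 of the CPI203 controls (0.58), with adjusted p no higher than 0.000431. Over all 10 genes the difference passed the test for 7, beside 50.3% of all genes tested, and was called for 4, beside 24.5%. Each compound was used at a single dose, so these differences hold for those doses.

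The genes that regulate ODC1 protein all rose with CPI203, by less than 1.5-fold. OAZ2 (ENSG00000180304, chr15:64979772-64995480) went from 46.4 and 46 RPKM to 61.7 and 63.4 RPKM, a log2 fold change of 0.44 (SE 0.04, adjusted p = 5.69e-06). AZIN1 (ENSG00000155096, chr8:103838585-103906092), whose product opposes the antizymes, went from 132.6 and 142.8 RPKM to 170.3 and 166.6 RPKM, a log2 fold change of 0.29 (SE 0.04, adjusted p = 0.000189). OAZ1 (ENSG00000104904, chr19:2269519-2273487), the most abundant of the 10 genes, went from 354.6 and 356.1 RPKM to 398.5 and 392.4 RPKM, a log2 fold change of 0.15 (SE 0.03, adjusted p = 0.000781). In none of the 3 genes did the CPI203 libraries overlap their controls. OAZ1 was, however, at 474 and 480.9 RPKM in the other DMSO pair, and against all 4 DMSO libraries its change with CPI203 was -0.06 (adjusted p = 0.734), so its direction depends on which controls are used.

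With SGC-CBP30 the antizyme genes moved in opposite directions. OAZ1 fell from 474 and 480.9 RPKM to 391.7 and 378 RPKM, a log2 fold change of -0.31 (SE 0.03, adjusted p = 4.36e-05), and OAZ2 rose from 42.7 and 43.3 RPKM to 49.2 and 50.3 RPKM, a log2 fold change of 0.21 (SE 0.04, adjusted p = 0.00228). AZIN1 rose from 121.1 and 118.9 RPKM to 131.5 and 138.3 RPKM, a log2 fold change of 0.17 (SE 0.04, adjusted p = 0.0113). None of these groups overlapped, yet against all 4 DMSO libraries OAZ1 (-0.10, adjusted p = 0.649), OAZ2 (0.16, adjusted p = 0.087) and AZIN1 (0.07, adjusted p = 0.561) no longer passed the test. AZIN1 was also no longer past the threshold after median scaling (0.09, adjusted p = 0.0974), with no filter on low values (adjusted p = 0.0714), with no intensity trend (adjusted p = 0.0591), without DMSO replicate 2 (0.16, adjusted p = 0.0635) or without SGC-CBP30 replicate 2 (0.13, adjusted p = 0.0948). The effects of the compounds differed for OAZ1 by -0.47 (SE 0.04, adjusted p = 1.14e-05), for OAZ2 by -0.23 (SE 0.05, adjusted p = 0.00623) and for AZIN1 by -0.12 (interval -0.26 to 0.01, adjusted p = 0.116), which did not pass the test. Treated means of OAZ1 were close, 384.8 RPKM with SGC-CBP30 and 395.5 RPKM with CPI203, while its DMSO pairs differed by -0.43. The OAZ1 difference thus cannot be told apart from that between the DMSO pairs. The AZIN1 difference passed after median scaling (-0.19, adjusted p = 0.0195) and without replicate 2 of the CPI203 controls (-0.18, adjusted p = 0.0319). OAZ1, OAZ2 and AZIN1 overlap other annotated genes, as do ODC1 and PAOX. JSRP1 in OAZ1 was at no more than 0.313 RPKM and SNORA80B in ODC1 at no more than 0.282 RPKM. The assignment of reads between overlapping genes is uncertain.

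The largest change among the 10 genes was in SAT1 (ENSG00000130066, chrX:23801290-23804343), the acetyltransferase that starts polyamine breakdown. It went from 4.26 and 4.95 RPKM with DMSO to 20.9 and 19.7 RPKM with CPI203, and the lowest CPI203 library was far above every other library of the series. The log2 fold change was 2.12 (SE 0.09, adjusted p = 5.14e-08), or 4.34-fold, rank 81 among all rises with CPI203. With SGC-CBP30 SAT1 rose from 5.55 and 5.45 RPKM to 7.86 and 7.62 RPKM, a log2 fold change of 0.49 (SE 0.09, adjusted p = 0.00198). This rise of 1.4-fold was not called against its own controls and was called against all 4 DMSO libraries (0.61, adjusted p = 0.0143). The effect of CPI203 on SAT1 was the larger, the difference being -1.63 (SE 0.12, adjusted p = 5.52e-06).

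The oxidases SMOX and PAOX changed in opposite directions with CPI203. SMOX (ENSG00000088826, chr20:4101627-4168394), which turns spermine back into spermidine, went from 2.13 and 1.79 RPKM to 5.24 and 4.92 RPKM with CPI203, a log2 fold change of 1.33 (SE 0.13, adjusted p = 1.19e-05), or 2.52-fold. With SGC-CBP30 it fell from 2.69 and 2.52 RPKM to 1.68 and 1.72 RPKM, a log2 fold change of -0.59 (SE 0.13, adjusted p = 0.00623). SMOX thus moved in opposite directions with the compounds, without overlap in either experiment, and the difference of -1.92 (SE 0.18, adjusted p = 2.5e-05) was the largest of the 10 genes. The fall with SGC-CBP30, the only call among the 10 genes with that compound, sat at the 1.5-fold limit. It was under that limit with a pseudocount of 1 (-0.42), without DMSO replicate 1 (-0.54) and without SGC-CBP30 replicate 1 (-0.57), and against all 4 DMSO libraries it did not pass the test (-0.39, adjusted p = 0.15).

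PAOX (ENSG00000148832, chr10:135192695-135205198) varied most between replicates. It was at 7.05 and 4.86 RPKM with DMSO and 4.12 and 3.64 RPKM with CPI203, a log2 fold change of -0.59 (SE 0.20, adjusted p = 0.0265), which was called, at the 1.5-fold limit. The groups did not overlap but came within 1 RPKM, and the value rested on the higher DMSO library, since without DMSO replicate 1 it was -0.32 (adjusted p = 0.211). The call was also lost without CPI203 replicate 2 (-0.50, adjusted p = 0.118), with no filter on low values (adjusted p = 0.16), with no intensity trend (adjusted p = 0.069) and with a pseudocount of 1 (-0.50, adjusted p = 0.0279). With SGC-CBP30 PAOX was at 5.59 and 4.98 RPKM against 5.06 and 7.42 RPKM with DMSO, with overlapping groups and a log2 fold change of -0.21 (interval -0.66 to 0.24, adjusted p = 0.428). Without DMSO replicate 2 that value turned to 0.06. The difference between the compounds, 0.37, had an interval of -0.26 to 1.01 (adjusted p = 0.301).

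**Figure D2:**
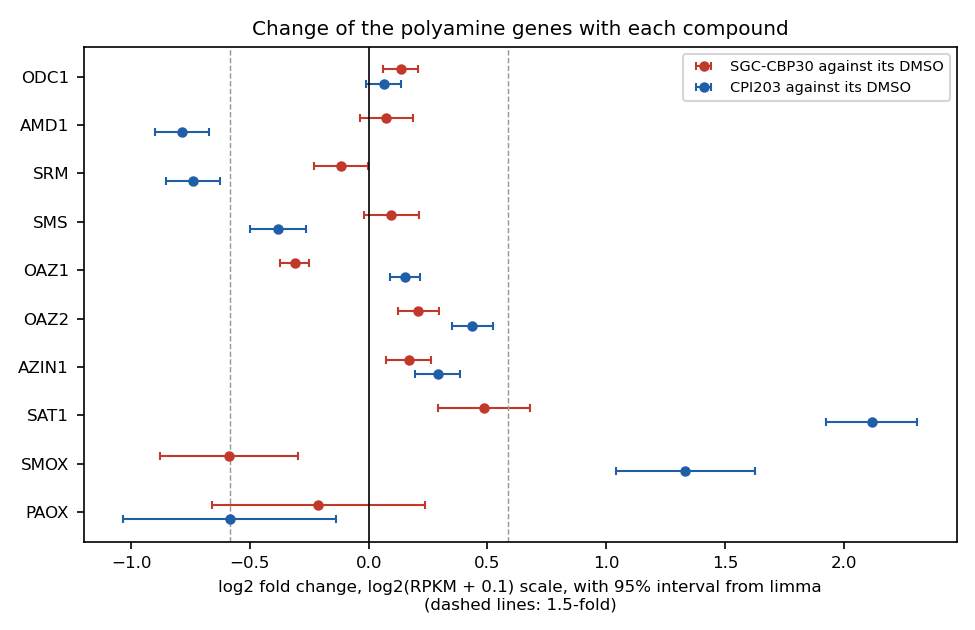
Log2 fold change (horizontal axis, log2(RPKM + 0.1) scale) of the 10 polyamine genes with SGC-CBP30 and with CPI203, each against its own DMSO pair, with 95% intervals from limma and dashed lines at 1.5-fold. CPI203 values run from -0.79 for AMD1 to 2.12 for SAT1, and SGC-CBP30 values from -0.59 for SMOX to 0.49 for SAT1.

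Over the 10 genes the median log2 fold change was 0.11 with CPI203, against -0.015 for all genes tested, and the median absolute change was 0.51 against 0.33. With SGC-CBP30 the median was 0.09 against 0.07 for all genes, and the median absolute change 0.19 against 0.18, so that by these medians the 10 genes stood close to the background. At an adjusted p below 0.05 alone, 64.2% of all genes changed with CPI203 and 40.4% with SGC-CBP30, beside 9 and 6 of the 10 genes. The plot of both compounds' changes sets each gene against all others.

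**Figure D3:**
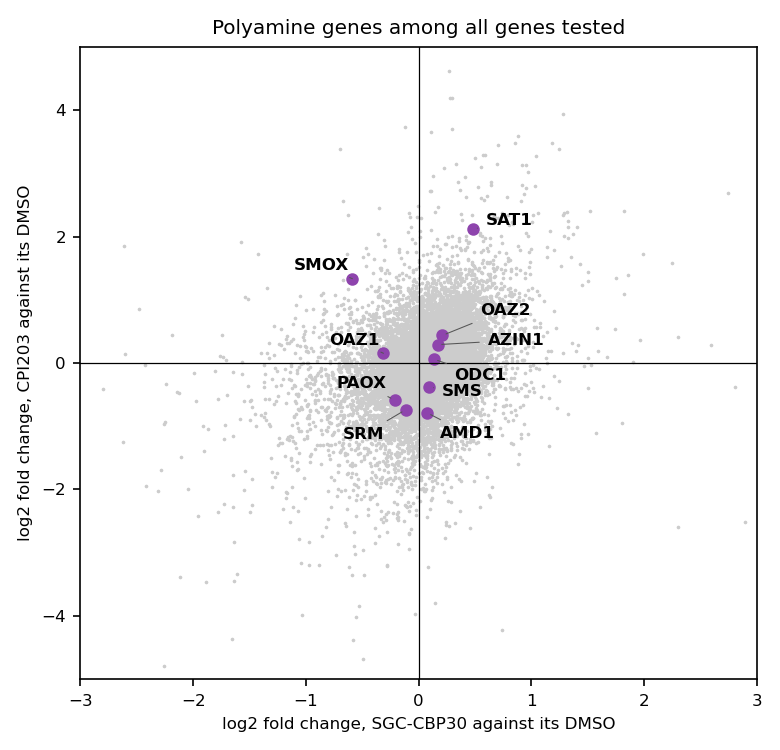
Log2 fold change with SGC-CBP30 (horizontal axis) and with CPI203 (vertical axis), each against its own DMSO pair, for all 14732 genes tested (grey) and the 10 polyamine genes (purple, named). SAT1 lies highest at 2.12, SMOX lies to the upper left at -0.59 and 1.33, AMD1 and SRM lie below 0 on the vertical axis near the middle of the horizontal one, and 6 genes are outside the plotted range.

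With CPI203 the summed level of the synthesis genes lay below, and that of the catabolic genes above, the range of the other libraries. The summed level of ODC1, AMD1, SRM and SMS was 403.7 and 394.4 RPKM with DMSO and 315.8 and 324.4 RPKM with CPI203, and that of SAT1, SMOX and PAOX was 13.4 and 11.6 RPKM with DMSO and 30.2 and 28.3 RPKM with CPI203. The log2 ratio of catabolism over synthesis was higher by 1.54 (SD 0.11 between replicates), and by 0.91 when SAT1 and ODC1 were left out of the sums. With SGC-CBP30 the synthesis sum was 421.7 and 422.1 RPKM with DMSO and 439.4 and 418.7 RPKM with the compound, and the catabolism sum was 13.3 and 15.4 RPKM with DMSO and 15.1 and 14.3 RPKM with the compound. Both pairs overlapped, and the log2 ratio differed by 0.02 (SD 0.11), less than the spread between replicates, but by -0.27 when SAT1 and ODC1 were left out. The catabolic genes took 1.22 to 1.43% of the summed RPKM of the 10 genes in the 4 DMSO libraries, 1.43 and 1.47% with SGC-CBP30 and 2.9 and 3.1% with CPI203. ODC1 and SRM were the largest terms of the synthesis sum in every group. The largest term of the catabolism sum was PAOX in the means of both DMSO pairs and SAT1 with each compound, and no test was run on the sums.

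**Figure D4:**
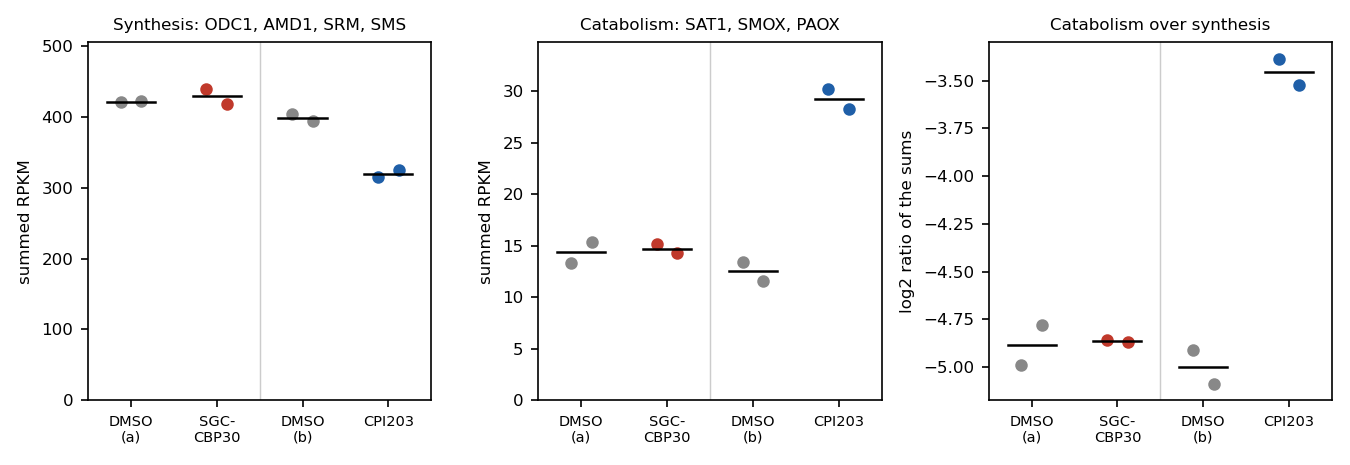
Summed RPKM of the 4 synthesis genes (left, axis from 0) and of the 3 catabolic genes (middle, axis from 0) and the log2 ratio of catabolism over synthesis (right), per library (points) with the group mean (bar), with DMSO (a) the controls of SGC-CBP30 and DMSO (b) those of CPI203. The CPI203 libraries have ratios of -3.38 and -3.52, above all other libraries, which lie between -5.09 and -4.78.

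Relative to ODC1, the summed antizyme genes OAZ1 and OAZ2 had a log2 ratio of 1.17 and 1.18 with DMSO and 1.32 and 1.29 with CPI203. In the SGC-CBP30 experiment it was 1.56 and 1.63 with DMSO and 1.18 and 1.21 with the compound. The ratio was thus higher with CPI203 and lower with SGC-CBP30 than in the matching controls, without overlap, but the DMSO pairs themselves differed by more than the change with either compound, and the SGC-CBP30 libraries lay next to the CPI203 controls. The log2 ratio of SAT1 over ODC1 was -5.38 and -5.17 with DMSO and -3.14 and -3.25 with CPI203, and it was -4.98 and -4.96 with DMSO and -4.62 and -4.6 with SGC-CBP30, so it was higher with each compound.

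The DMSO pairs differed from each other in 6 of the 10 genes, against 41.7% of all genes tested, and in none by 1.5-fold, against 7.84%. OAZ1 differed most, with a log2 change of -0.43 from the controls of SGC-CBP30 to those of CPI203 (adjusted p = 4.51e-06). SMOX (-0.40, adjusted p = 0.0343), SAT1 (-0.25, adjusted p = 0.039), SRM (-0.25, adjusted p = 0.00384) and SMS (-0.17, adjusted p = 0.0272) were lower in the controls of CPI203, and AZIN1 was higher (0.20, adjusted p = 0.00491). ODC1, AMD1, OAZ2 and PAOX did not pass the test, although OAZ2 passed with no filter on low values (0.10, adjusted p = 0.0389) and after quantile normalization (0.13, adjusted p = 0.0272). The differences in SMS, SAT1 and SMOX were no longer past the threshold when any of several libraries was left out, among them replicate 1 of the SGC-CBP30 controls, without which they were -0.16, -0.24 and -0.35 (adjusted p = 0.104, 0.124 and 0.133). The experiment and the DMSO pair cannot be told apart.

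Of 44 further genes listed for their part in polyamine precursor supply, transport, other synthesis and breakdown steps, and hypusination, 27 were tested. With CPI203 8 of the 27 rose and 15 fell, beside 31.1% and 33.1% of all genes. Of the 27, 4 were called higher and 9 lower, against 13.4% and 14.4% of all genes. The median log2 fold change of the 27 was -0.27 with CPI203, against -0.015 for all genes, and 0.07 with SGC-CBP30, against 0.07. With SGC-CBP30 7 rose and 3 fell, beside 25.6% and 14.8% of all genes, and 1 was called, beside 7.26%. ARG2 is counted as a rise and a call with both compounds, but it reached the mean required for testing only through its treated libraries. EIF5A and its near copy EIF5AL1, which could share reads, are counted separately among the 27. Both fell with both compounds, by -0.40 and -0.37 with CPI203. AZIN2, listed in the table as ADC, had a mean of 0.829 RPKM and was not tested. Of the further antizyme and catabolic genes only OAZ3 and SAT2 were tested, and neither was called. SAT2, on the catabolic list, fell with CPI203 (log2 fold change -0.27, adjusted p = 0.0271), unlike SAT1 and SMOX. The effects of the compounds on SAT2 differed by 0.44 (adjusted p = 0.02).

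Ornithine and its precursor arginine are supplied by several routes. SLC7A1, an importer of arginine and ornithine, fell from 20.9 and 21.6 RPKM to 10.2 and 10.5 RPKM with CPI203 (log2 fold change -1.03, SE 0.05, adjusted p = 1.5e-07). ALDH18A1, the synthase that leads from glutamate towards proline and ornithine, fell from 50.5 and 52.7 RPKM to 29.9 and 30.4 RPKM (-0.77, SE 0.04, adjusted p = 2.32e-07), and SLC25A15, the mitochondrial ornithine carrier, fell from 23.2 and 22.7 RPKM to 14.6 and 13.5 RPKM (-0.71, SE 0.06, adjusted p = 3.32e-06). OAT, the ornithine aminotransferase, rose from 38.9 and 39.7 RPKM to 68.2 and 68.9 RPKM (0.80, SE 0.04, adjusted p = 1.99e-07). In none of these genes did the groups overlap. ARG2, the mitochondrial arginase, rose with both compounds but from a low level, with 0.86 and 0.582 RPKM with DMSO against 1.78 and 1.71 RPKM with CPI203 (1.19, SE 0.22, adjusted p = 0.000945), and 0.825 and 0.673 RPKM with DMSO against 1.65 and 1.54 RPKM with SGC-CBP30 (1.00, SE 0.22, adjusted p = 0.00604). Its mean in each DMSO pair was below 1 RPKM (0.749 and 0.721), so it reached the mean required for testing only through the treated libraries, and its call is no more than a description. It was the only called gene of the 27 with SGC-CBP30, and with a pseudocount of 1 that value was 0.57, under 1.5-fold. The effects of the compounds on ARG2 differed by -0.19, with an interval of -0.89 to 0.51 (adjusted p = 0.645).

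The supply of S-adenosylmethionine and the salvage of methylthioadenosine, the by-product of spermidine and spermine synthesis, showed changes in both directions with CPI203. Of 10 tested genes 2 were called higher and 3 lower, beside 13.4% and 14.4% of all genes. MAT2A, the S-adenosylmethionine synthetase of cells outside the liver, fell from 148.6 and 148.9 RPKM to 79.9 and 80.9 RPKM (-0.89, SE 0.03, adjusted p = 1.67e-08), and its regulatory partner MAT2B rose from 35.1 and 37.9 RPKM to 58.5 and 58.8 RPKM (0.68, SE 0.05, adjusted p = 1.85e-06). MTAP, which cleaves methylthioadenosine, fell from 31.9 and 32.2 RPKM to 20.5 and 20.5 RPKM (-0.64, SE 0.04, adjusted p = 1.23e-06), and ENOPH1, a later enzyme of the salvage route, fell from 43.8 and 43.6 RPKM to 26.7 and 26.4 RPKM (-0.72, SE 0.05, adjusted p = 1.22e-06). AHCYL2, a relative of the S-adenosylhomocysteine hydrolase, rose from 7.98 and 8.3 RPKM to 22.3 and 21.3 RPKM (1.41, SE 0.07, adjusted p = 1.36e-07). All of these groups were apart, with replicates close together. With SGC-CBP30 MAT2A was at 159.3 and 158.8 RPKM with DMSO and 159.4 and 158.4 RPKM with the compound, and the difference between the compounds for MAT2A was 0.89 (SE 0.04, adjusted p = 4.74e-07).

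Of 6 tested transport genes 3 were called lower with CPI203 and none higher, beside 14.4% and 13.4% of all genes, SLC7A1 being the first. SLC18B1, a vesicular polyamine transporter, fell from 2.56 and 3.07 RPKM to 1.05 and 1 RPKM (-1.36, SE 0.15, adjusted p = 3.46e-05). CAV1, which encodes caveolin and has been linked to polyamine uptake, fell from 69.4 and 68.7 RPKM to 46.8 and 44.9 RPKM (-0.59, SE 0.04, adjusted p = 9.59e-07). Its controls were at 41.5 and 42.4 RPKM in the other experiment, and against all 4 DMSO libraries the value was -0.23 (adjusted p = 0.405). The CAV1 change was also just under 1.5-fold with a pseudocount of 1 (-0.58), after quantile normalization (-0.55), without DMSO replicate 1 (-0.58) and without CPI203 replicate 2 (-0.56). Spermidine is also the substrate for hypusine, an amino acid made on the translation factor eIF5A. DOHH, the second enzyme of that step, fell from 14.5 and 13.9 RPKM to 8.13 and 8.21 RPKM (-0.79, SE 0.08, adjusted p = 9.93e-06). It was the only called gene of the 4 tested in that list, beside 27.8% of all genes.

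**Figure D5:**
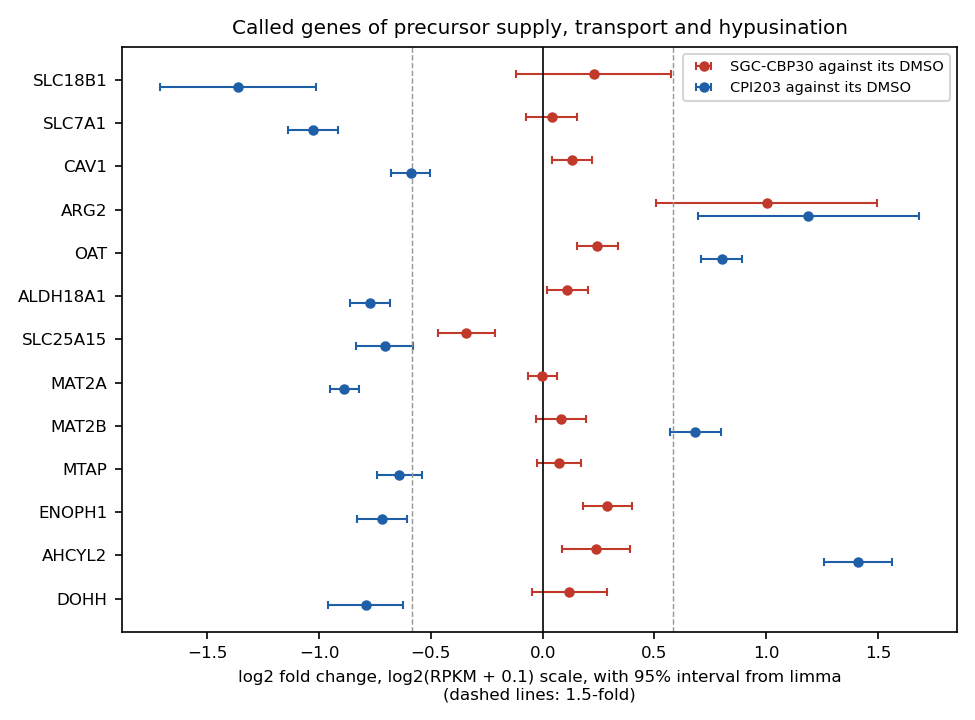
Log2 fold change (horizontal axis, log2(RPKM + 0.1) scale) with SGC-CBP30 and with CPI203, each against its own DMSO pair, with 95% intervals from limma and dashed lines at 1.5-fold, for the 13 genes of precursor supply, transport and hypusination called in at least 1 comparison. With CPI203 9 of them lie to the left of 0 and 4 to the right, and ARG2 is past the right dashed line with both compounds.

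The genes whose changes were most like those of ODC1 over the 4 treated libraries, among 8297 genes with at least 10 RPKM, were PCIF1, GDAP2 and STARD3, with root mean square differences of 0.0084, 0.018 and 0.019 on the log2 scale. ODC1 changed little with either compound, and how common such closeness is among genes was not counted, so it is no more than a description. Those most like SAT1 were LMNA, AC093323.3 and AMACR, with differences of 0.15, 0.17 and 0.20. Their mean log2 changes with CPI203 were 2.02, 1.93 and 2.01, beside 0.30, 0.36 and 0.73 with SGC-CBP30. These genes were picked for closeness to SAT1 in the same libraries, so their values too are no more than a description.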

How the data were processed

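RNA-seq of 8 LP-1 libraries was analysed from the RPKM values the authors deposited, 1 per gene and library, made by their sequencing provider. The submitters' processing notes name TopHat 1.4.1, Cufflinks and hg19, and the annotation release is not given in the sources used here. The deposited table holds 24 further columns of per-library values, which were not used. Locus starts in the table count from 0 and were converted to count from 1. Promoter windows came from RefSeq (GRCh38.p14), and exons near them from GENCODE release 29 on the same build.

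Genes lacking a value (27) were dropped, 33312 were above 0 in some library, and the 14732 whose mean over the libraries reached 1 RPKM were tested. limma 3.58.1 in R 4.3.3 (eBayes with trend) was fitted to log2(RPKM + 0.1) with 4 group means over 8 libraries, giving 4 residual and 5.48 prior degrees of freedom, without further scaling or blocking and with Benjamini-Hochberg adjustment over all genes tested. The fit was tested on simulated data with independent noise in each library and planted changes larger than 1.5-fold. That does not test pairing, differences between the DMSO pairs or changes near the 1.5-fold limit. RPKM are not counts, so no count test was run, and values are shares of a library. Depth was estimated from values up to 0.5 RPKM of genes of at least 800 bases, of which 58.7 to 71.4% fell within 0.1 of a whole read, so it is only approximate. The SD of the log2 difference between replicates was 0.0909 to 0.115 over 8298 genes with at least 10 RPKM, and at most 0.0241% of those genes had identical values.

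The 10 genes are always named. Of the wider lists, genes called in at least 1 of the 3 compound comparisons are named, with the 3 genes most like ODC1 and the 3 most like SAT1 (by root mean square difference of log2 changes from their own DMSO mean, at a mean of 10 RPKM or more), and MYC and IRF4 once. The genes and lists were chosen with earlier results of these data known. Alternatives were another pseudocount, filters, scalings, pooled controls, replicate blocks, separate fits, no trend, other fold limits and leaving out each library.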

Additional observations from a re-analysis of the deposited data

Results flagged for a closer look

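The effects of the compounds differed by a test of the difference itself (limma, adjusted p below 0.05) for 7 of the 10 polyamine genes, beside 50.3% of all genes tested. The effect of SGC-CBP30 minus that of CPI203 was 0.62 for SRM, 0.48 for SMS, 0.86 for AMD1, -0.47 for OAZ1, -0.23 for OAZ2, -1.63 for SAT1 and -1.92 for SMOX on the log2 scale. SMOX and OAZ1 passed the test in opposite directions with the compounds, although OAZ1 with CPI203 turned to -0.06 against all 4 DMSO libraries. The OAZ1 difference of -0.47 cannot be told apart from that of -0.43 between the DMSO pairs.

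Of the 27 tested genes of precursor supply, transport, other synthesis and breakdown steps, and hypusination, 19 differed between the compounds, beside 50.3% of all genes. Of those, the genes named here were chosen because they were called in some comparison. The difference was 1.59 for SLC18B1, 1.07 for SLC7A1, 0.72 for CAV1, -0.56 for OAT, 0.88 for ALDH18A1 and 0.36 for SLC25A15. It was 0.89 for MAT2A, -0.60 for MAT2B, 0.72 for MTAP, 1.01 for ENOPH1, -1.17 for AHCYL2 and 0.91 for DOHH. ENOPH1 rose with SGC-CBP30 (0.29, adjusted p = 0.00171) and fell with CPI203. CAV1 rose with SGC-CBP30 (0.13, adjusted p = 0.0248), which turned to -0.23 against all 4 DMSO libraries. Treated means of CAV1 were alike, 45.97 RPKM with SGC-CBP30 and 45.84 RPKM with CPI203. Its DMSO means were 41.98 and 69.04 RPKM, so its difference of 0.72 cannot be told apart from that between the DMSO pairs. Groups of 2 libraries are too small for a test of single libraries.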

How the results depend on the processing

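Of 1461 log2 fold changes of named genes under the alternatives, 1376 kept their direction and side of the threshold. Many alternatives could not move the value itself, such as other fold limits, no trend or leaving out a library of the other experiment. This count therefore overstates how stable the values are. With CPI203, SAT1 (1.93 to 2.22), SMOX (1.04 to 1.45), AMD1 (-0.82 to -0.75) and SRM (-0.86 to -0.68) kept their direction under every alternative run. Several smaller changes with SGC-CBP30 depended on the controls or the scaling, as given beside them. Depth is known only approximately, so no counting interval is given. The cause of the shifts below was not tested.

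With no minimum fold, 5945 genes passed with SGC-CBP30, 9459 with CPI203, 7416 for the difference and 6150 between the DMSO pairs, and 6, 9, 7 and 6 of the 10 polyamine genes. At 2-fold these were 278, 1558, 1427 and 423 genes, and of the polyamine genes 0, 2 and 2 for SGC-CBP30, CPI203 and the difference. A pseudocount of 1 left 667 genes and 0 polyamine genes with SGC-CBP30. A mean of at least 5 RPKM left 505 genes and 0 polyamine genes with SGC-CBP30 (SMOX was then not tested), 2590 genes with CPI203, 2358 for the difference and 518 between the DMSO pairs, with fewer genes tested. Against all 4 DMSO libraries 516 genes were called with SGC-CBP30. Of the calls with SGC-CBP30 47.8% were higher, and 32.4% after median or quantile scaling. For the difference this was 60.5%, and 50.2% after quantile scaling. Median scaling moved the median change of all genes with SGC-CBP30 from 0.07 to -0.0061.

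Signs turned with SGC-CBP30 for AMD1 (-0.0019), SLC7A1 (-0.036) and MTAP (-0.0026) after median scaling, for SLC7A1 (-0.0046) and MAT2A (0.092) after quantile normalization, and for SRM (0.0095), CAV1 (-0.23) and MAT2A (0.047) against all 4 DMSO libraries, as did OAZ1 with CPI203 (-0.059). With 1 library left out at a time, signs turned for MAT2A (-0.0055 to 0.0029, positive without DMSO replicate 1 or SGC-CBP30 replicate 2) and PAOX (-0.48 to 0.059, positive without DMSO replicate 2) with SGC-CBP30, for PAOX between the DMSO pairs (-0.34 to 0.21, positive without replicate 2 of either pair) and for ARG2 in the difference (-0.43 to 0.061, positive without replicate 2 of the CPI203 controls). With no alternative applied, none of these changes passed the test apart from CAV1 with SGC-CBP30 and OAZ1 with CPI203. Of the turned values, MAT2A with SGC-CBP30 after quantile normalization passed the test (adjusted p = 0.029). CAV1 (adjusted p = 0.512) and OAZ1 (adjusted p = 0.734) against all 4 DMSO libraries did not.

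The same left-out libraries gave 902 to 1079 genes called with SGC-CBP30, 4033 to 4160 with CPI203, 3311 to 3612 for the difference and 1060 to 1250 between the DMSO pairs. The polyamine genes called were 0 to 1 with SGC-CBP30 (0 without DMSO replicate 1 or SGC-CBP30 replicate 1), 4 to 5 with CPI203, 3 to 4 for the difference and 0 to 0 between the DMSO pairs. A group left with 1 library is assumed to vary like the others. The log2 ratio of summed catabolism over synthesis changed by -0.088 to 0.12 with SGC-CBP30 and by 1.46 to 1.64 with CPI203. Without SAT1 and ODC1 it changed by -0.27 with SGC-CBP30 and by 0.91 with CPI203.

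A figure legend of the study speaks of paired DMSO controls, but no source used here says that replicate numbers mark the pairs. Deviations of same-numbered samples from their group means had correlations of -0.172 and -0.0395, so the numbers were not taken as pairs. With a replicate block 1057 genes were called with SGC-CBP30, 4120 with CPI203 and 3573 for the difference, and 1, 5 and 4 polyamine genes. With the numbers crossed in the SGC-CBP30 experiment, an alternative chosen after seeing the data, 1076 genes were called with SGC-CBP30 and 3606 for the difference.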
